A study of Mus musculus with 14 samples.

Results

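The genes described here are 40 mouse genes that serve the making of red blood cells: globins, enzymes of heme synthesis, carriers of iron and of heme precursors, proteins of the red cell membrane and its skeleton, channels, and enzymes and factors of late maturation. They were chosen by name from what is known of them, with earlier results of these data also known. Of the 40, 38 had reads, out of 52550 genes in the table. Total RNA was sequenced from 14 samples after removal of ribosomal RNA. The samples were 4 libraries of hematopoietic stem and progenitor cells (HSPCs) enriched from the bone marrow of wild-type (WT) C57BL/6 mice, 4 of HSPCs from C57BL/6 mice that lack the microRNA gene Mir139 (Mir139KO), and 6 cultures that began as WT HSPCs and received the leukemia fusion gene MLL-AF9, of which 3 were made with the retroviral vector selected by neomycin (neo 1 to 3) and 3 with that selected by puromycin (puro 1 to 3). The mice were 8 to 20 weeks old. The MLL-AF9 cells had been transduced, selected on the drug of their vector and plated again in methylcellulose at least 2 times. They were then expanded in medium with interleukins, granulocyte-macrophage colony-stimulating factor and stem cell factor, for which the red cell hormone erythropoietin is not listed. No sample was of HSPCs cultured in the same way without MLL-AF9, so effects of the fusion gene and of culture cannot be told apart. The labels do not say which HSPC samples were lysed at once, nor whether replicates came from separate animals or separate transductions, so p-values measure the spread between these samples, which may be technical.

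Red blood cells arise from progenitors in the bone marrow that, under the hormone erythropoietin, switch on globin genes, take up iron through the transferrin receptor, and make heme in and around the mitochondrion in a fixed series of enzyme steps. Late in this course the cell lays down a spectrin skeleton that is tied to the membrane through ankyrin and the anion exchanger, and then loses its nucleus. The transcription factors Gata1 and Klf1 bind, in many of these genes, the short motifs known as GATA sites and CACCC boxes.

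Each library held between 35016668 and 45877994 counts. The levels below are CPM (counts scaled to a common library size) after scaling for composition by the trimmed mean of M-values (TMM), over all 14 libraries. A call means an adjusted p under 0.05 in edgeR's quasi-likelihood test with Benjamini-Hochberg adjustment over all genes tested. A single noncoding gene, Gm26917, took 17.0% to 21.9% of the counts in WT 1, WT 2, Mir139KO 2 and Mir139KO 3 (low-share libraries), 32.7% to 35.4% in WT 3, WT 4, Mir139KO 1 and Mir139KO 4 (high-share libraries), and 7.55% to 10.4% in the MLL-AF9 cultures. The Mir139 row was at 0 in all 14 libraries and lies within the span of another gene, so it does not check the knockout. The stem and progenitor marker Kit stood at 144.5 to 264.8 CPM in HSPC libraries and at 42.0 to 117.5 CPM in MLL-AF9 cultures, Cd34 at 31.8 to 50.5 CPM and 0.0387 to 1.62 CPM. The myeloid progenitor markers Mpo, Elane, Prtn3 and Ctsg summed to 4596 to 13060 CPM and 564.5 to 3263 CPM. Fewer cells of a type and less RNA per cell cannot be told apart in such bulk samples.

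Together the listed genes took 0.318% to 0.615% of the counts in HSPC libraries and 0.0779% to 0.0881% in MLL-AF9 cultures. The heatmap by gene and library shows how this total was made up. Most of the genes were far lower in every MLL-AF9 culture than in any HSPC library, whereas Slc25a37, Tfrc and Epb41 stayed at levels that overlapped with those of HSPCs.

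**Figure D1:**
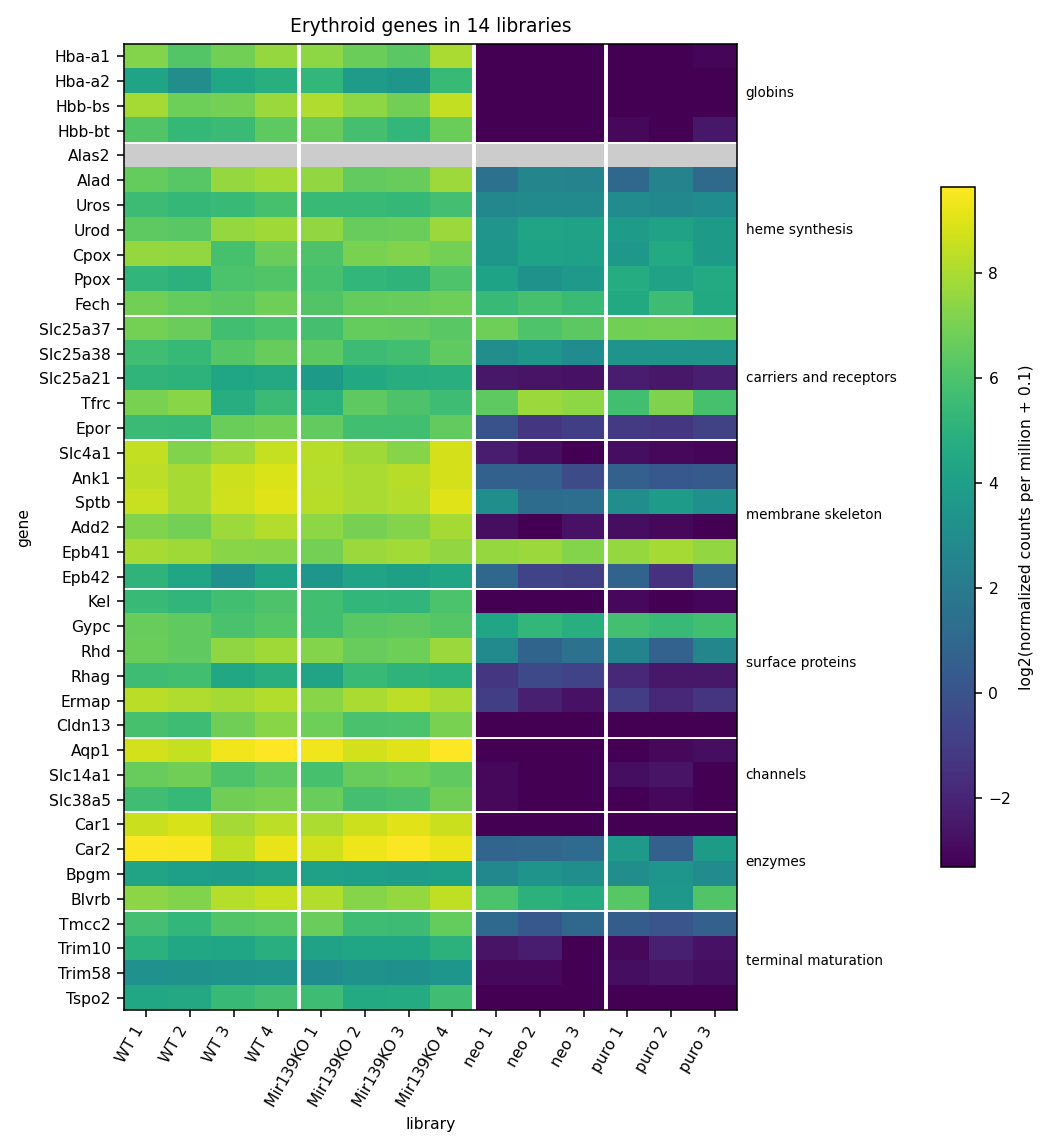
Level of each erythroid gene (rows, grouped by role) in each of the 14 libraries (columns), as the log2 of TMM-normalized CPM plus 0.1. The 8 HSPC libraries at the left are bright for nearly every gene, the 6 MLL-AF9 cultures at the right are dark except for genes such as Tfrc, Slc25a37 and Epb41, and the grey row is Alas2, for which no read was counted in any library.

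Promoter sequence was read from RefSeq (build GRCm38.p6) for 30 of the genes, because most of them were lower in MLL-AF9 cells than in HSPCs. Tfrc and Epb41, which were not called, and Alas2, which was not measured, are among the 30. GATA sites, written here as AGATAA or AGATAG, or as TGATAA or TGATAG, on either strand, were found within 250 bases before the start in 18 of the 39 promoters of these 30 genes (46.2%), against 26.5% of 32851 promoters in all. The CACCC box, on either strand, was found in 69.2% against 52.0%, and both motifs in 35.9% against 11.8%. A match describes the letters only. To show how the motifs lie, 120 bases before the start are given for 4 genes whose window overlaps no annotated exon: Rhd at chr4:134864416-134864535 (plus strand) with a GATA site and a CACCC box, Epor at chr9:21963577-21963696 (minus strand) with a GATA site, Cpox at chr16:58670088-58670207 (plus strand) with overlapping GATA sites and a CACCC box, and Aqp1 at chr6:55336179-55336298 (plus strand) with a CACCC box alone. Capitals mark the motifs, which are shown in reverse complement where they lie on the opposite strand (TTATCT for AGATAA and GGGTG for CACCC, for example).
Rhd: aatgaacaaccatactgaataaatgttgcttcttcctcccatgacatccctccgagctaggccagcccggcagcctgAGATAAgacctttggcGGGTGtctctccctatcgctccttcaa
Epor: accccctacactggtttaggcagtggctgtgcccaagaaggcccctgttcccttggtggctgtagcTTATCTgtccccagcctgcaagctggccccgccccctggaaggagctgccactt
Cpox: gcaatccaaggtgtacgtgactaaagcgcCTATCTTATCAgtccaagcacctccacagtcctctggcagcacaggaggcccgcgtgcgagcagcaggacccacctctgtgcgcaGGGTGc
Aqp1: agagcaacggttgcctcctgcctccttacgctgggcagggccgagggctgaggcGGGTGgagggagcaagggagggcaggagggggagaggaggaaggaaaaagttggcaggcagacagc

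Setting MLL-AF9 cells against WT HSPCs shows how the genes stand after transformation. All 38 genes with reads were tested, and 35 were called lower in MLL-AF9 cells and 0 higher, where 29.4% of the 17077 genes tested were called lower and 32.8% higher. The same 35 lay lower in all 6 cultures than in all 4 WT libraries, where 24.9% of all genes did. The median log2 fold change of the 38 was -7.18, with genes at 0 counts in all cultures also set at their bounds, and that of all genes tested was 0.14. Of the 38, 18 passed the minimum of 10 counts in 4 libraries only through the HSPC libraries and so had to be lower: all 4 globins, all 3 channels, Slc25a21, Slc4a1, Add2, Kel, Rhag, Ermap, Cldn13, Car1, Trim10, Trim58 and Tspo2. For these genes the levels are given as a description, without a test. Among the 20 that passed it in the MLL-AF9 libraries alone, 17 were called lower, where 25.6% of 15681 such genes were. Of a list of 12 housekeeping genes, 7 of the 11 tested were also called lower and 1 higher, with a median log2 fold change of -0.81.

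**Figure D2:**
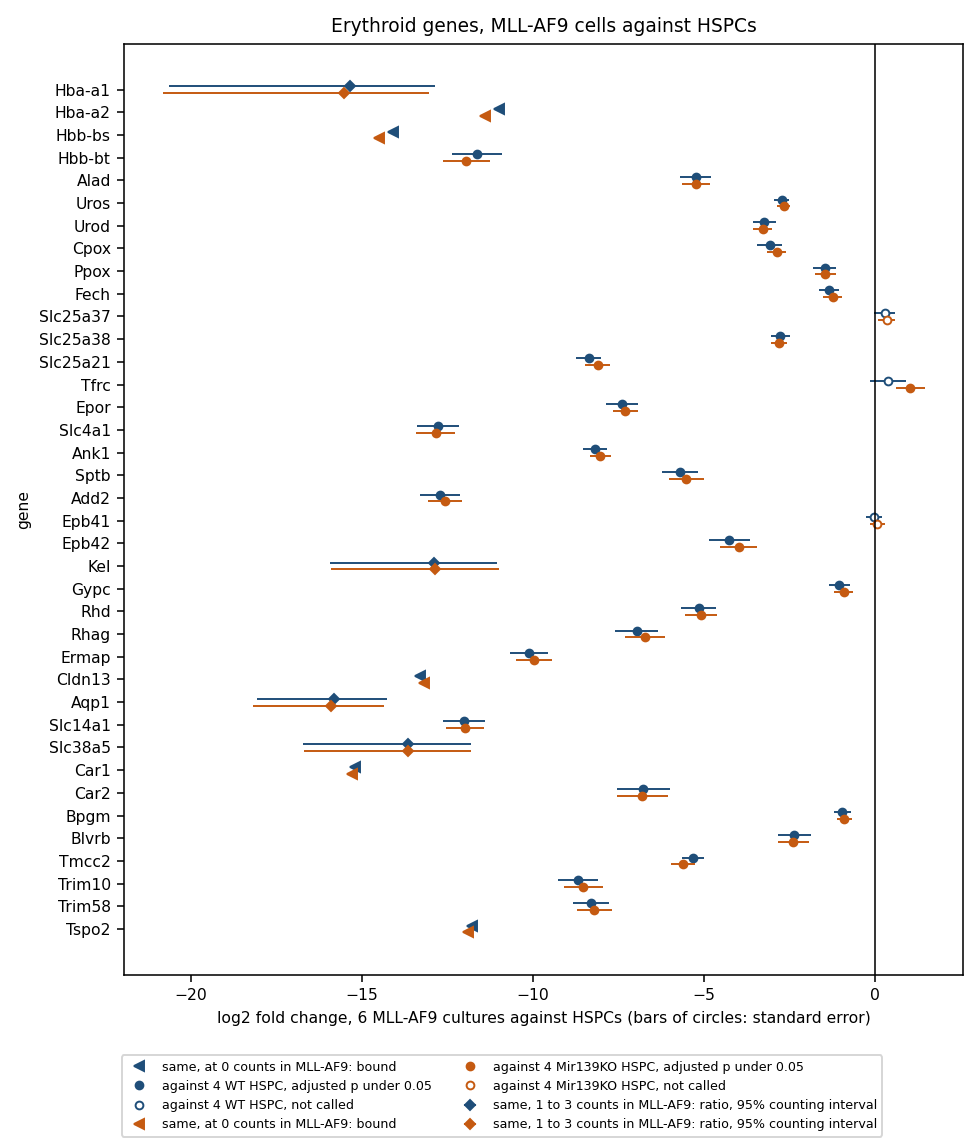
Log2 fold change of each erythroid gene in the 6 MLL-AF9 cultures against 4 WT (blue) and 4 Mir139KO (orange) HSPC libraries, with standard errors as bars, filled circles for adjusted p under 0.05 and open circles for genes not called. Triangles are bounds for genes with 0 counts in all cultures, diamonds are ratios with 95% counting intervals for genes with 1 to 3 counts, and Slc25a37, Tfrc and Epb41 lie around 0 or above it while the other genes lie to the left.

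The adult globin genes, which encode the alpha and beta chains of hemoglobin, stood between 8.48 and 342 CPM in HSPC libraries and were all but missing from MLL-AF9 cultures. Hbb-bs, a beta globin gene, stood at 237, 108, 123 and 207 CPM in the 4 WT libraries and at 270.2, 171, 118 and 342 CPM in the 4 Mir139KO libraries. It had 0 counts in all 6 MLL-AF9 cultures. Every HSPC library thus lay far above every culture, and with a floor of 3 counts over the 6 cultures Hbb-bs in them was at least 17500-fold lower than in the WT group. Hba-a1, an alpha globin gene, stood at 149.9, 71.9, 119 and 194 CPM in WT and at 173, 104, 78.3 and 252 CPM in Mir139KO libraries. A lone read was counted for it in the cultures, in puro 3, which gives a ratio of WT HSPCs to MLL-AF9 cells of 41600 with a 95% counting interval of 7460 to 1640000. WT 2 was the lowest of the WT libraries and Mir139KO 3 the lowest of the Mir139KO libraries for this gene.

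The second alpha gene, Hba-a2, stood at 18.9, 8.48, 21.4 and 28.0 CPM in WT, at 38.7, 13.8, 11.5 and 43.0 CPM in Mir139KO libraries, and at 0 counts in all 6 cultures. In MLL-AF9 cells it was therefore at least 1990-fold lower than in the WT group. The second beta gene, Hbb-bt, stood at 68.9, 39.0, 44.7 and 85.6 CPM in WT and at 98.0, 56.7, 38.2 and 104 CPM in Mir139KO libraries. The 6 cultures gave 5 counts of it in all, 1 in puro 1 and 4 in puro 3, and its fitted log2 fold change was -11.64. The copies are nearly alike in sequence: of the 50-base windows of Hba-a2 86.9% also occur in Hba-a1, and of those of Hbb-bs 65.8% also occur in Hbb-bt. The split of counts within each pair is therefore uncertain. How reads that fit both copies were counted is not stated, and if they were left out the globin levels given here are too low. Ahsp, the chaperone of alpha globin, was not analysed here.

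All 6 measured enzymes of heme synthesis were called lower in MLL-AF9 cells, by less than the globins. Alad, which joins the first precursors into porphobilinogen, stood at 93.9, 77.9, 193 and 229.8 CPM in WT and at 183, 93.2, 98.4 and 212 CPM in Mir139KO libraries. In the cultures it ranged from 2.01 to 5.79 CPM with a median of 4.11. No library overlapped between HSPCs and cultures, and the log2 fold change against WT was -5.25 ± 0.45 (SE; adjusted p = 4.59e-06). Urod, which acts on uroporphyrinogen, stood at 86.4, 78.5, 194 and 219.6 CPM in WT, at 185, 97.2, 105 and 207 CPM in Mir139KO libraries, and between 10.9 and 18.8 CPM (median 15.8) in the cultures. It too was lower in every culture than in any HSPC library, changing by -3.24 ± 0.33 on the log2 scale (adjusted p = 1.43e-05). Uros and Cpox, which act just before and after Urod, fell by 2.73 and fell by 3.08 on the log2 scale, respectively. The last enzymes of the chain moved least: Ppox fell by 1.48 ± 0.33 (adjusted p = 0.00238) and Fech, which inserts the iron, fell by 1.34 ± 0.29 (adjusted p = 0.00193). With libraries scaled by total counts alone, neither Ppox (-0.75, adjusted p = 0.0555) nor Fech (-0.79, adjusted p = 0.0536) was called. Ppox also lost its call with low-share HSPC libraries only. Alas2, the erythroid enzyme of the first step, had 0 counts in all 14 libraries. It lies at chrX:150547375-150570638 wholly inside the span of Apex2. Of 12360 genes of all types that lie wholly inside the spans of others, only 1.23% have any count. Among protein-coding genes, 4.76% of 1240 that lie so but have exonic bases outside other exons have any count. That compares with 87.0% of 20503 protein-coding genes with a base of their own. Its row therefore carries no measurement.

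The carriers and receptors split. Epor, the erythropoietin receptor, stood at 45.2, 42.4, 106 and 117 CPM in WT, at 92.3, 52.2, 52.7 and 91.4 CPM in Mir139KO libraries, and between 0.313 and 0.852 CPM (median 0.398) in the cultures, and changed against WT by a log2 value of -7.39 ± 0.46 (adjusted p = 5.36e-07). Slc25a38, the mitochondrial glycine carrier, stood at 50.9, 41.3, 75.4 and 97.5 CPM in WT and at 82.0, 46.6, 52.9 and 89.2 CPM in Mir139KO libraries. It ranged from 7.66 to 11.3 CPM (median 10.3) in the cultures and changed by -2.77 ± 0.28 on the log2 scale (adjusted p = 1.11e-05). Both genes lay lower in each culture than in each HSPC library. Slc25a21, a mitochondrial carrier of dicarboxylates, had a fitted log2 fold change of -8.38 and 25 counts in the 6 cultures together.

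Slc25a37 (mitoferrin), which brings iron into the mitochondrion, stood at 120.4, 103, 52.6 and 61.5 CPM in WT, at 56.9, 96.1, 90.7 and 78.8 CPM in Mir139KO libraries, and between 66.3 and 119.7 CPM (median 114) in the cultures. The groups overlapped, and the log2 fold change against WT was 0.28 with a 95% interval of -0.31 to 0.87 (adjusted p = 0.438). Tfrc, the transferrin receptor, stood at 130.2, 163, 27.2 and 45.2 CPM in WT, at 31.3, 84.7, 65.3 and 49.0 CPM in Mir139KO libraries, and between 52.9 and 206 CPM (median 113) in the cultures. WT 1 and WT 2 were as high as many cultures, WT 3 and WT 4 below all of them, and the log2 fold change against WT was 0.37 with an interval of -0.67 to 1.42 (adjusted p = 0.559). Within the low-share HSPC libraries the log2 fold change of Tfrc against WT was -0.36 (adjusted p = 0.579) and within the high-share libraries 1.61 (adjusted p = 0.0367), and of Slc25a37 -0.17 (adjusted p = 0.600) and 0.75 (adjusted p = 0.0418). After a correction for GC content Tfrc was at -1.01 (adjusted p = 0.031). The direction of Tfrc therefore changed with the libraries and the correction used.

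Most genes of the membrane skeleton were far lower in MLL-AF9 cells, though Slc4a1 and Add2 entered the test only through the HSPC libraries. Slc4a1, the anion exchanger to which the skeleton is anchored, stood at 350.2, 143, 212 and 355 CPM in WT, at 298, 218, 157 and 450.3 CPM in Mir139KO libraries, and between 0 and 0.0968 CPM (median 0.0295) in the cultures, 11 counts in all. Its fitted log2 fold change against WT was -12.77. Ank1, ankyrin, stood at 329.7, 245, 399 and 481 CPM in WT, at 290.5, 257, 302 and 439.8 CPM in Mir139KO libraries, and between 0.689 and 1.55 CPM (median 1.32) in the cultures. The groups were far apart for both genes, and the log2 fold change of Ank1 was -8.20 ± 0.36 (adjusted p = 6.21e-08). The log2 fold changes of Sptb (spectrin beta), Add2 (adducin) and Epb42 were -5.71, -12.72 and -4.26. Epb41, which ties spectrin to actin and is used in many other cells, stood at 243, 223, 162 and 155 CPM in WT, at 121, 202, 228 and 185 CPM in Mir139KO libraries, and between 152 and 238 CPM (median 190.0) in the cultures. Its groups overlapped, changing by -0.03 on the log2 scale with an interval of -0.49 to 0.43 (adjusted p = 0.928). After the correction for GC content, which is 42.3% in Epb41, it was called lower, at -1.21 (adjusted p = 0.000472).

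Of the 6 surface proteins, Rhd and Gypc had enough counts in the cultures for a test that could go either way, and both were called lower. Rhd, of the Rh blood group, stood at 107, 88.0, 176 and 223 CPM in WT, at 150.0, 98.8, 108 and 203 CPM in Mir139KO libraries, and between 1.603 and 6.99 CPM (median 4.22) in the cultures. Every culture was below every HSPC library, and the log2 fold change was -5.16 ± 0.51 (adjusted p = 1.08e-05). Cldn13, a claudin, stood at 58.7, 48.7, 115 and 161 CPM in WT, at 110.0, 61.2, 61.7 and 131 CPM in Mir139KO libraries, and at 0 counts in all cultures, at least 9950-fold lower than in WT. Rhag, the partner of Rhd in the membrane, and Ermap, of the Scianna blood group, had fitted log2 fold changes of -6.97 and -10.12. Kel, an endopeptidase that carries the Kell blood group, had 2 counts in the cultures, a ratio of WT to MLL-AF9 of 7680 (95% counting interval 2130 to 63400). Gypc (glycophorin C) moved least, falling by 1.04 ± 0.30 (adjusted p = 0.00873), and its call was lost in 5 alternatives: with total counts alone (-0.51, adjusted p = 0.261), with GC correction (-0.61, adjusted p = 0.0965) with or without a replicate block, with high-share HSPC libraries only (-0.89, adjusted p = 0.0505) and with puro cultures only (-0.68, adjusted p = 0.0953).

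The channels and transporters were among the genes with the fewest counts in MLL-AF9 cells. Aqp1, the water channel whose promoter is shown above, stood at 429, 364, 648 and 769.6 CPM in WT and at 653, 436, 509 and 793 CPM in Mir139KO libraries. The cultures held 3 counts of it, a ratio of 57400 (95% counting interval 19600 to 278000). Slc38a5, an amino acid transporter, stood at 50.3, 41.1, 111 and 132 CPM in WT and at 102, 55.3, 59.7 and 115 CPM in Mir139KO libraries, and had 2 counts in the cultures, a ratio of 13000 (3610 to 108000). Slc14a1, the urea transporter, had 6 counts in the cultures and a fitted log2 fold change of -12.01.

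Of the enzymes, Car1, a carbonic anhydrase, stood at 381, 467, 239 and 329 CPM in WT, at 263, 402, 536 and 392 CPM in Mir139KO libraries, and at 0 counts in all 6 cultures, at least 36800-fold lower than in WT. Its relative Car2 stood at 753, 719, 340.3 and 583 CPM in WT, at 416, 642, 765 and 601 CPM in Mir139KO libraries, and between 1.49 and 13.3 CPM (median 2.01) in the cultures, changing by -6.78 ± 0.78 on the log2 scale (adjusted p = 3.13e-05). Thus Car2 was still counted in every culture and Car1 in none. Blvrb, a biliverdin reductase, and Bpgm, which makes the bisphosphoglycerate that tunes oxygen release, had log2 fold changes of -2.37 and -0.96 ± 0.25 (adjusted p = 0.00512), and the call of Bpgm was lost in alternatives that included total counts alone (-0.40, adjusted p = 0.233) and the replicate block.

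Genes of terminal maturation were near 0 in the cultures except for Tmcc2. Tspo2, a relative of the translocator protein, stood at 20.8, 22.8, 44.4 and 53.4 CPM in WT, at 48.0, 23.8, 24.7 and 50.2 CPM in Mir139KO libraries, and at 0 counts in the cultures, at least 3670-fold lower than in WT. Trim10 stood at 30.9, 20.9, 19.2 and 28.5 CPM in WT, at 17.5, 20.1, 20.2 and 31.8 CPM in Mir139KO libraries, and between 0 and 0.117 CPM (median 0.0573) in the cultures, a fitted log2 fold change of -8.69. Trim58, a ubiquitin ligase, was at -8.30. Tmcc2, the one gene of this role with enough counts in the cultures, was called lower, at -5.32 ± 0.33 (adjusted p = 5.36e-07).

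The counts for further lists of related genes stand beside 29.4% of all genes called lower and 32.8% called higher. Of 10 tested erythroid regulators 9 were called lower, with a median log2 fold change of -2.61. Among them Gata1 was at -8.72, Klf1 at -7.53 and Tal1 at -9.70, while Myb was at 0.09 (adjusted p = 0.838). Of 21 tested further genes of heme and iron handling, 11 were called lower, among them Steap3, a ferrireductase, at -3.99, and 3 higher, including Ireb2 and Hmox2. Alas1, the form of the first heme enzyme used in all cells, stood at 237 ± 74.6 CPM (SD, n = 4) in WT and 238 ± 61.7 CPM (n = 6) in MLL-AF9 cells. Of 18 tested further membrane genes 10 were called lower, including the tetraspanin Tspan33 at -12.17 and the potassium channel Kcnn4 at -6.77, and 2 higher, the glucose transporter Slc2a1 and Cd47. Of the other globin genes only Hbq1b was tested, and it stood below 1 CPM in every HSPC library.

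Other cell types moved along with the erythroid genes. Between HSPC libraries and MLL-AF9 cultures, the summed level of megakaryocyte markers went from 151 to 813 CPM to 15.3 to 50.3 CPM, that of mast cell and basophil markers from 515 to 1554 CPM to 4.38 to 18.9 CPM, that of B cell markers from 25.1 to 76.0 CPM to 1.47 to 6.12 CPM, and that of T cell markers from 22.7 to 55.4 CPM to 0.411 to 1.78 CPM. All tested markers of these lists were called lower against WT, 6 of 6, 4 of 4, 4 of 4 and 5 of 5, where 29.4% of all genes were. Macrophage markers summed to 113 to 222 CPM in HSPC libraries and to 45.4 to 149 CPM in the cultures, which overlap, with 6 of 8 called lower and 1, Adgre1, called higher (1.47, adjusted p = 0.00629). Neutrophil markers overlapped, at 342 to 10570 CPM and 256 to 3789 CPM, with 1 of 6 called lower. What part such other cells had in the erythroid values was not tested.

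The comparison with Mir139KO HSPCs uses the same 6 cultures, so it is not a separate test of them. Of the 38 genes, 35 were called lower, where 31.9% of 16953 genes were, and 34 lay lower in all cultures than in all 4 Mir139KO libraries, where 28.6% of genes did. The same 18 genes as above entered only through the HSPC libraries. The exception was Gypc, at -0.91 ± 0.28 (adjusted p = 0.0109), for which Mir139KO 1, at 52.9 CPM, lay below puro 1, at 54.2 CPM. Slc25a37, at 0.34 (adjusted p = 0.223), and Epb41, at 0.06 (adjusted p = 0.824), were not called. Tfrc was called higher, at 1.04 ± 0.43 (adjusted p = 0.0452), where 37.3% of all genes were, but this call was kept in 16 of 29 alternatives. It was lost without any of Mir139KO 1, 3 or 4, neo 2, neo 3 or puro 2, and the direction turned after GC correction (-0.66, adjusted p = 0.095). For the globins the bounds were close to those against WT: Hbb-bs was at least 23400-fold and Hba-a2 at least 2780-fold lower than in Mir139KO HSPCs.

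Mir139KO HSPCs were set against WT HSPCs to see whether the genes differ without Mir139 before transformation. Of the 38 genes, 0 were called by edgeR, DESeq2 or limma-voom, and 0 had an unadjusted p under 0.05. Over 15056 genes 0.0% were called lower and 0.0% higher, and 0.571% had an unadjusted p under 0.05. Hba-a2 had the largest rise, at 0.47 with a 95% interval of -0.54 to 1.47 (adjusted p = 1.0). Tfrc had the largest fall, at -0.68 with an interval of -1.77 to 0.41 (adjusted p = 1.0). These intervals leave room for changes of over 1 log2 unit. Both values changed sign by subset: Hba-a2 was at -0.11 within the low-share libraries and Tfrc at 0.11 within the high-share libraries.

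**Figure D3:**
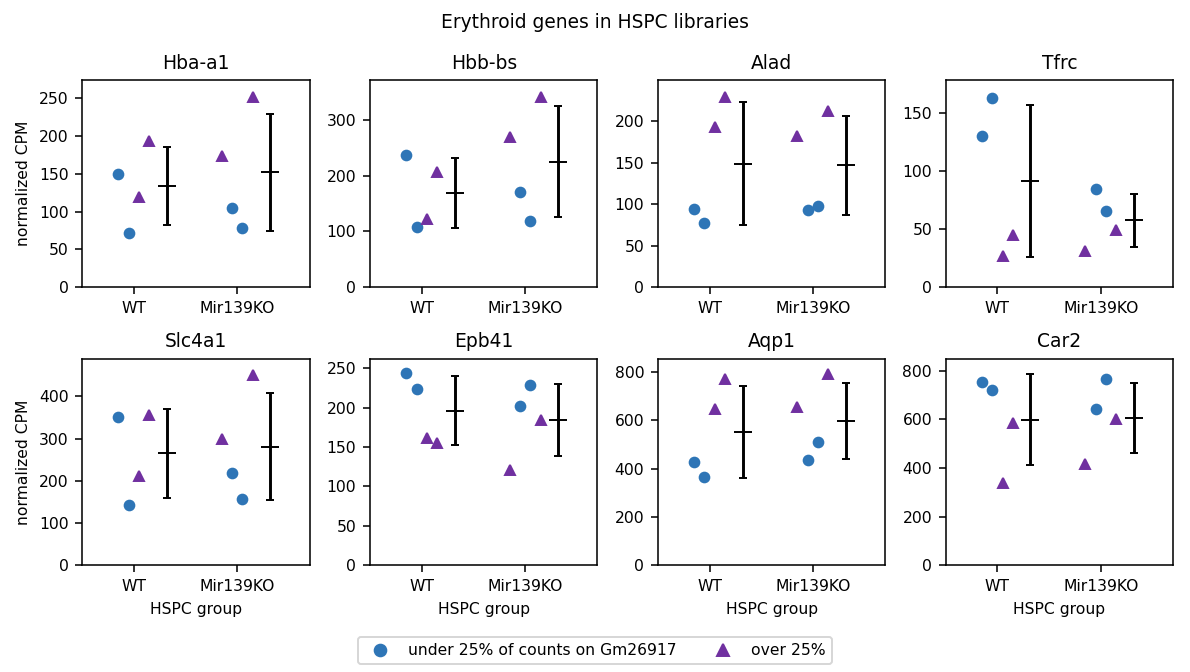
Level of 8 erythroid genes, in TMM-normalized CPM on axes that start at 0, in 4 WT and 4 Mir139KO HSPC libraries, with the mean and SD as black marks. Circles are libraries with under 25% of counts on Gm26917 and triangles those with over 25%, and within each group Alad and Aqp1 are higher and Tfrc lower in the triangles.

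The levels among HSPC libraries differed with the Gm26917 share. In the high-share libraries 15 of the 38 genes lay above all low-share libraries, where 30.9% of all genes did, and 8 lay below, where 34.3% did. These libraries differ in composition, and their scaling factors were 0.614 to 0.660 against 0.966 or higher. The highest differences were those of Hba-a2 (1.32 on the log2 scale), Alad (1.17) and Cldn13 (1.17), and the lowest were those of Tfrc (-1.54), Cpox (-0.92) and Rhag (-0.86). Over the 38 genes the difference had a Spearman correlation of 0.759 with GC content, and over 15056 genes of 0.737, where all points share the same 8 libraries. Scaled by total counts alone, the median of the 38 was -0.11 and that of all genes -0.70, against 0.58 and -0.01 after TMM scaling, and with total counts 6 of the 38 lay above and 16 below all low-share libraries (1393 and 8136 of all genes). The balance of higher and lower genes between these libraries thus turns with the scaling. The cause of the difference was not tested.

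**Figure D4:**
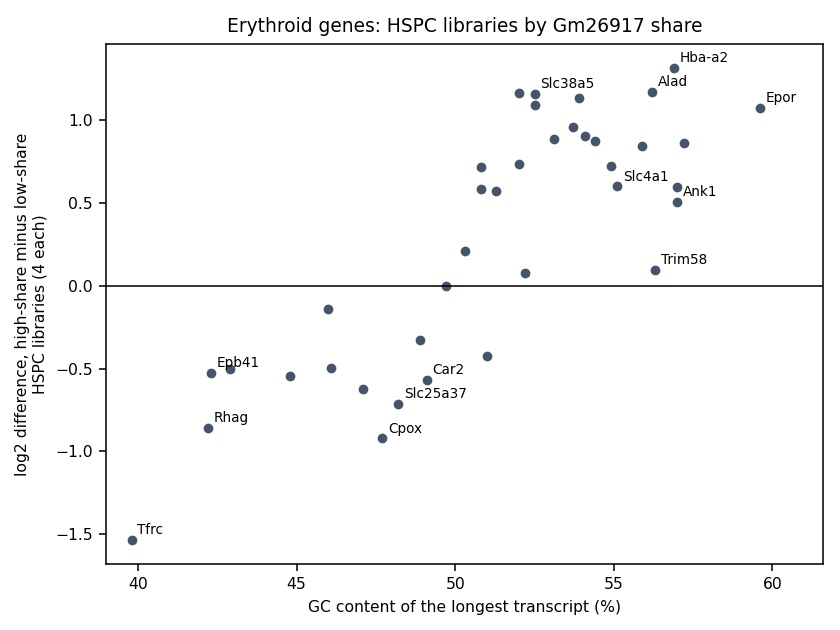
Log2 ratio of the mean level in the 4 high-share HSPC libraries to that in the 4 low-share ones (vertical axis) against the GC content of the longest transcript in percent (horizontal axis), 1 point for each of 38 erythroid genes. Tfrc, with a GC content of 39.8%, lies lowest at -1.54, and Epor, with 59.6%, lies at 1.08.

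The comparison of vectors asks whether the cultures differ by the resistance gene. Of the 38 genes 22 had enough counts to be tested, and 0 were called by edgeR, where 0.309% of 16503 genes were called lower and 0.564% higher. At an unadjusted p under 0.05 there were 3 (Car2, Rhag and Gypc), where 13.7% of all genes were. Car2 stood at 1.74, 1.81 and 2.21 CPM in neo and at 12.2, 1.49 and 13.3 CPM in puro cultures, the largest rise, at 2.25 ± 0.78 (adjusted p = 0.275). Rhag stood at 0.310, 0.631 and 0.507 CPM in neo and at 0.181, 0.0782 and 0.0753 CPM in puro cultures, the largest fall, at -2.09 ± 0.57 (adjusted p = 0.163). For Car2, puro 2 lay below all neo cultures, whereas for Rhag all puro cultures lay below all neo cultures. Scaled within this comparison, 1 of the 22 genes, Rhag, lay lower in puro cultures without overlap. Another 3, Slc25a37, Sptb and Gypc, lay higher. Of all 16503 genes, 1430 lay lower and 1825 higher without overlap. DESeq2 called 2 genes, Car2 (adjusted p = 0.0395) and Rhag (adjusted p = 0.0418), and without puro 2 edgeR called 1, Car2, at 2.76 (adjusted p = 0.00928). Over all genes DESeq2 called 8.03%, and edgeR without puro 2 called 5.75%. With puro 1 and puro 3 summed into 1 sample, Car2 was at 1.94 (adjusted p = 0.677) and Rhag at -2.17 (adjusted p = 0.449). The puro 1 and puro 3 libraries were more alike (r = 0.995 over log2 CPM) than other pairs of cultures (0.924 to 0.981), and whether they are separate cultures is not stated.

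**Figure D5:**
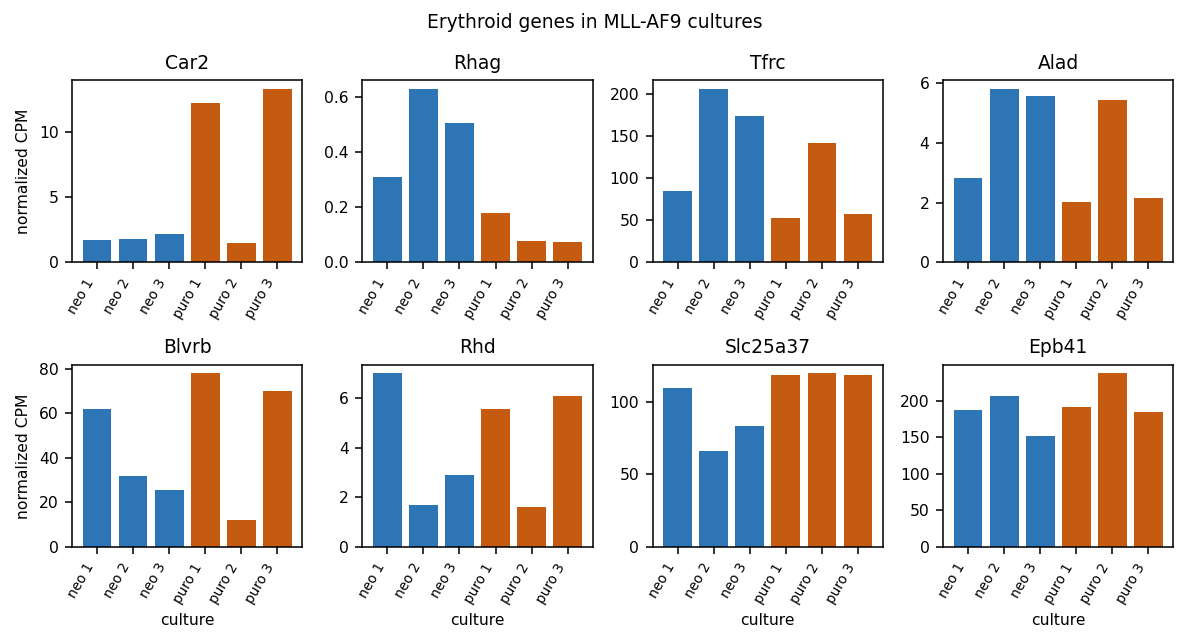
Level of 8 erythroid genes in each MLL-AF9 culture, in TMM-normalized CPM on axes that start at 0, with neo cultures in blue and puro cultures in orange and 1 bar for each culture. Car2 is at 12.2 and 13.3 CPM in puro 1 and puro 3 and below 3 CPM elsewhere, and Rhag is lower in all puro than in all neo cultures.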

How the data were processed

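Total RNA of 14 samples was depleted of ribosomal RNA and sequenced by the authors, who aligned reads to the mouse genome GRCm38 with STAR 2.5.3e and counted them per gene with featureCounts 1.6.0 on GENCODE M15. FastQC 0.11.8 served for quality control. The deposited values are raw counts per gene, and the strand setting is not given in the sources used here. A second table repeats these counts and has 10 further columns, of samples not listed here, which were not used.

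Groups came from the sample labels. Counts were tested in R 4.3.3 with edgeR 4.0.16 (quasi-likelihood test, TMM scaling), on genes with at least 10 counts in as many samples as the smaller group holds, 1 fit for each comparison, with Benjamini-Hochberg adjustment over all genes tested. DESeq2 1.42.0 and limma 3.58.1 served as alternatives, with other filters and scalings, a GC correction, a replicate block, subsets of libraries and each replicate left out. Gene spans and GC content came from GENCODE M21, which placed 52403 of the 52550 genes. The tests were tried on simulated data with the same dispersion for every gene and no Gm26917 share classes. That trial does not show how the tests behave on the present libraries. Totals of 35016668 to 45877994 counts per library make a floor of 3 counts over 6 cultures equal to 0.00963 CPM, and counting intervals and floors cover counting error only.

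The genes and lists were chosen with earlier results of these data known. Values in every sample are given for the globins, for the 2 genes of each role with the highest level per length in WT HSPCs and for genes not called lower against WT. In the other comparisons, those called and the largest rise and fall are named. Values of some listed genes are not reported here.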

Additional observations from a re-analysis of the deposited data

Results flagged for a closer look

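Epor in the MLL-AF9 cultures was set apart by 1 culture: neo 1 stood at 0.852 CPM and the other 5 cultures at 0.313 to 0.471 CPM, so that its gap to the next was 0.707 of the whole range. Of 96 groups of values examined this was the only one, and chance sets apart about 1 in 20 such groups. HSPC libraries stood at 42.4 CPM or higher.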

How the results depend on the processing

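The number of erythroid genes called lower ranged from 31 (total counts alone) to 36 in both comparisons of MLL-AF9 cells with HSPCs. It was 35 whichever replicate was left out. Here and below, such counts include the 18 genes that entered only through the HSPC libraries. Those had to be lower, so their calls do not show that a result holds across settings. Of the other 20 genes, 17 were called lower in the main fit of each comparison. Total counts alone moved the median of all genes from 0.14 to 0.69 against WT and from 0.16 to 0.84 against Mir139KO, and the genes called lower from 5027 to 3129 and from 5416 to 3212. Between Mir139KO and WT no alternative called any. For puro against neo, 2 were called by DESeq2, 2 with all 14 samples in a single fit, and 0 to 1 with a replicate left out, the 1 being without puro 2. Over all genes that comparison called 144, but 1326 by DESeq2, 692 in the single fit, 990 without puro 2 and 0 without neo 2 or neo 3.

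Against WT, log2 fold changes changed sign for Slc25a37 (-0.17, low-share libraries), for Tfrc (-1.01 with GC correction, -0.96 with GC correction and replicate block, -0.36 in low-share libraries, -0.11 with puro cultures only) and for Epb41 (0.49 with total counts, 0.095 without WT 1, 0.0040 without WT 2, 0.047 without neo 3, 0.18 in high-share libraries, 0.076 with puro cultures only). Against Mir139KO they did so for Tfrc (-0.66 with GC correction, -0.65 with the block added) and Epb41 (-1.20 and -1.25 likewise, -0.14 without Mir139KO 1, where leaving out Mir139KO 3 gave the highest value of 0.17, -0.22 in low-share libraries). Between Mir139KO and WT, Hba-a2 was at -0.11 in low-share and Tfrc at 0.11 in high-share libraries. The cause was not tested.

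With a replicate block the counts were 34 against WT, 35 against Mir139KO, and 0 for each other comparison. Same-numbered samples did not deviate together throughout (r from -0.656 to 0.723 between Mir139KO and WT). There r was negative for numbers 1 and 3, which join a low-share with a high-share library. It was positive for numbers 2 and 4, which join libraries of the same share class. The check therefore cannot show whether same-numbered samples share more than a number. Depth limits the genes with 0 to 3 counts in MLL-AF9 cells to bounds or wide ratios.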

Other observations

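For a number of erythroid genes, picked out after their values were seen, the cultures fell into the same 3 high and 3 low, or the reverse. Ppox, Epb42, Rhd, Ermap and Blvrb were high in neo 1, puro 1 and puro 3. Alad, Urod, Cpox, Fech, Tfrc and Bpgm were low in those cultures. No order within the 3 was shared, and the share of all genes that split this way was not counted. For Rhd, neo 1, puro 1 and puro 3 stood at 6.99, 5.55 and 6.06 CPM and neo 2, neo 3 and puro 2 at 1.68, 2.90 and 1.603 CPM. For Blvrb the former stood at 62.1, 77.9 and 69.9 CPM and the latter at 31.98, 25.8 and 12.1 CPM. Alad ran the other way, at 2.81, 2.01 and 2.15 CPM in the former and 5.79, 5.54 and 5.42 CPM in the latter. This did not follow the vector, and its cause was not tested.

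Of the erythroid and listed genes, 10 had 0 counts in all libraries. Of these, 8 have no exonic base outside the spans of other genes, among them B2m, which nearly every cell uses, so a 0 in such rows is no measure of expression.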
